A study of Mus musculus with 22 samples.

Results

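Type II cadherins with Cdh11 were followed in mouse dermal fibroblasts, either wildtype (WT) or without Lap2alpha (KO). The set is 10 of 21883 protein-coding genes and was given by name: Cdh11, Cdh8, Cdh6, Cdh9, Cdh10, Cdh12, Cdh18, Cdh7, Cdh19 and Cdh20. The list was drawn up with the lamin A/C values of these libraries known, so the WT to KO differences in lamin A/C are a description and were not tested. The other classical type II genes, Cdh5, Cdh22 and Cdh24, were outside the set. Each gene was measured over its body plus 1 kb on each side, over 500 kb flanks, and in windows of 1 kb around each annotated gene end.

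Type II cadherins are calcium-dependent adhesion molecules that join neighbouring cells through their outermost domains and bind catenins inside the cell. Different members are made by different cells, and most are known from the nervous system. Cdh11, also called OB-cadherin, is the member known from fibroblasts and bone-forming cells. A-type lamins (lamin A/C) form part of the nuclear lamina and also occur in the nuclear interior, where they are bound by Lap2alpha, a form of the LAP2 proteins encoded by Tmpo. Large gene-poor stretches that hold tissue-specific genes are known to lie at the lamina. BRG1 is the ATPase of SWI/SNF remodellers and CHD4 that of the NuRD complex.

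Both genotypes were grown in serum-containing medium and crosslinked with DSG and formaldehyde before sonication for 16 or 20 cycles, and chromatin immunoprecipitation with sequencing (ChIP-seq) was read as lists of enriched regions. Lamin A/C was precipitated with antibodies 3A6 and E1, which gives 4 matched WT and KO pairs. BRG1 and CHD4 gave 2 pairs each, and Lap2alpha (antibody 1H11) was read in 2 WT lists. Of 22 samples, 18 were analysed here and 4 inputs were not. Each combination was 1 library, the labels do not say that any came from separate cultures, and whether the KO cells are 1 clone is not given in the sources used here. Genotype and culture therefore cannot be told apart, and mean ± SD below runs over pairs or lists that differ in antibody and sonication.

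The unit throughout is coverage, the percent of a gene's length lying in listed regions, which allows genes of different length to be compared. It is not an amount of protein: the lists held 7283 to 233769 regions, and KO CHD4 at 20 cycles was the shortest of all. Read depth is unknown, and fewer listed regions and less bound protein cannot be told apart. Tmpo lay in no lamin A/C region in 7 of 8 lists, which does not test its deletion. Of 13 fibroblast marker genes, 11 to 13 had a BRG1 region at a gene end in each BRG1 list, against 0 to 2 of 6 keratinocyte, 0 to 1 of 4 leukocyte, 1 to 2 of 4 endothelial, 1 to 2 of 4 melanocyte and 1 to 3 of 4 neuronal genes.

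The 10 genes were long, from 89.6 kb (Cdh19) to 1150 kb (Cdh12), while the median protein-coding gene was 17.2 kb. Cdh8 and Cdh11 lie on chromosome 8, with 3.21 Mb between them. Cdh6, Cdh9, Cdh10, Cdh12 and Cdh18 follow each other on chromosome 15, and Cdh20, Cdh7 and Cdh19 lie on chromosome 1. No other protein-coding gene lay between Cdh8 and Cdh11, between any neighbours of the chromosome 15 row, or between Cdh7 and Cdh19. For 6 of the 10 genes no other protein-coding gene lay within 500 kb.

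RefSeq promoter sequence (GRCm38.p6) was matched by symbol for 8 of the 10 genes, in 10 windows; Cdh11 and Cdh19 had none. The 250 bases upstream of the start are printed for 4 genes that differ in BRG1, in lower case with matches to CCAAT and GGGCGG on either strand in capitals. The windows of Cdh18 (chr15:23036213-23036462, plus strand), Cdh9 (chr15:16728665-16728914, plus strand) and Cdh20 (chr1:104768270-104768519, plus strand) each overlapped a BRG1 region in at least 1 list. The window of Cdh8 (chr8:99416472-99416721, minus strand) overlapped none and serves as the contrast.
Cdh18: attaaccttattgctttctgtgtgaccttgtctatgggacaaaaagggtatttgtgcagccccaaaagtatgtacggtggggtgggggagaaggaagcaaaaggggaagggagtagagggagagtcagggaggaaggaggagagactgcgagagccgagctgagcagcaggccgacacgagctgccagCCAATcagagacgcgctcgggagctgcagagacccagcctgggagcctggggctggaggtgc
Cdh9: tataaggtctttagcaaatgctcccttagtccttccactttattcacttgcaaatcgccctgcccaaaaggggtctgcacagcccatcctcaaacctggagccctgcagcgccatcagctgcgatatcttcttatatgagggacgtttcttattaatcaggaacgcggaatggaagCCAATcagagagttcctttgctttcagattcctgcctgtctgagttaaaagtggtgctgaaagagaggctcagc
Cdh20: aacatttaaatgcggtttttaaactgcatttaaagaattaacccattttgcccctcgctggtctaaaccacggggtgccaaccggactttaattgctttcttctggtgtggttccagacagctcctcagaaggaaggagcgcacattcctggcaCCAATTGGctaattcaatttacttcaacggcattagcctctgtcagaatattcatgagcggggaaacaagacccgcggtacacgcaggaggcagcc
Cdh8: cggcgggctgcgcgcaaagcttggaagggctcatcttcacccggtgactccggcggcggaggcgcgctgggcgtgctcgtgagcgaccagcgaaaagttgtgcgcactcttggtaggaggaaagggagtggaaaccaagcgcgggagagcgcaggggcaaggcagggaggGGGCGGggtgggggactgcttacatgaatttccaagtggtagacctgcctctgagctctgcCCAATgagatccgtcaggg

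The Cdh18 window lies inside the annotated gene and sat within the widest BRG1 region of the gene in the WT list at 20 cycles (1372 bp, chr15:23035695-23037066). It overlapped BRG1 regions in both WT lists and in neither KO list, although 1 KO region at 16 cycles lay within 1 kb. The Cdh9 window overlapped BRG1 in both WT lists and in KO at 16 cycles, and the Cdh20 window only in WT at 20 cycles. CCAAT, searched on both strands, was present in windows of 5 of the 8 genes (Cdh7, Cdh8, Cdh9, Cdh18 and Cdh20), and 33.8% of all 32851 windows of this length hold it. GGGCGG was present for Cdh6 and Cdh8 (32.7% of all windows) and CAGGTG for Cdh7 (17.2%). The AP-1 type motif TGANTCA was in none of the 10 windows (6.75% of all windows), and neither was the TATA box motif TATAAA (12.4%) or the E-box CACGTG (6.02%). CCAAT was thus held by the windows of Cdh18, Cdh9 and Cdh20, which overlapped BRG1, and by windows of Cdh7 and Cdh8, which did not. The windows of Cdh6, Cdh10 and Cdh12 had neither CCAAT nor BRG1. A CCAAT match therefore did not by itself mark a window with BRG1, and so few windows allow no more to be read.

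Cdh11 was the member with the most lamin A/C in every WT list. Its WT coverage was 11.1% (3A6, 16 cycles), 24.3% (3A6, 20 cycles), 9.31% (E1, 16 cycles) and 23.5% (E1, 20 cycles). In KO, in the same order, it was 0.91%, 1.43%, 1.65% and 3.02%. The highest KO value was below the lowest WT value, and both KO 3A6 lists put Cdh11 last of the 10 genes. The KO minus WT difference was -15.3 points ± 7.48 (SD, 4 pairs, all lower), a 9.74-fold ratio of the means.

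The difference at Cdh11 was not that of its chromosome. Chromosome 8 coverage went from 2.50% to 0.79% and from 5.97% to 3.13% with 3A6, and from 1.70% to 2.37% and from 5.24% to 6.57% with E1, so that the antibodies gave opposite directions for the chromosome and the same one for Cdh11. After subtraction of the chromosome's change, Cdh11 differed by -14.7 points ± 7.24 (SD, 4 pairs, all lower). In WT, Cdh11 was 4.07 to 5.47 times as covered as its chromosome. In KO the ratio was 1.15 (3A6, 16 cycles), 0.46 (3A6, 20 cycles), 0.69 (E1, 16 cycles) and 0.46 (E1, 20 cycles).

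Over all 10 genes, 2 were lower in KO in all 4 pairs, Cdh11 and Cdh8; the share was 1.08% among the 3138 genes of at least 80 kb, a set that contains all 10 members, and 0.605% among those of 5 kb or more. Cdh18, Cdh7 and Cdh19 were higher in all 4 pairs (29.7% of genes of 80 kb or more, 9.94% of those of 5 kb or more). Relative to the chromosome, Cdh11 and Cdh8 were lower in all 4 pairs (11% of genes of 80 kb or more) and Cdh18 and Cdh19 higher (12.3%). Cdh11 was the only member with every WT list above every KO list (0.127% of genes of 80 kb or more), and Cdh18 the only one with every KO list above every WT list (19.3%). The median difference of the 10 genes was 0.38 points, against 0.45 for all genes of 5 kb or more and 0.67 for those of 80 kb or more. Their median WT coverage was 4.1%, against 0% and 0.025%. These shares stand beside counts from a list chosen on the same contrast, and no more is read from them.

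**Figure D1:**
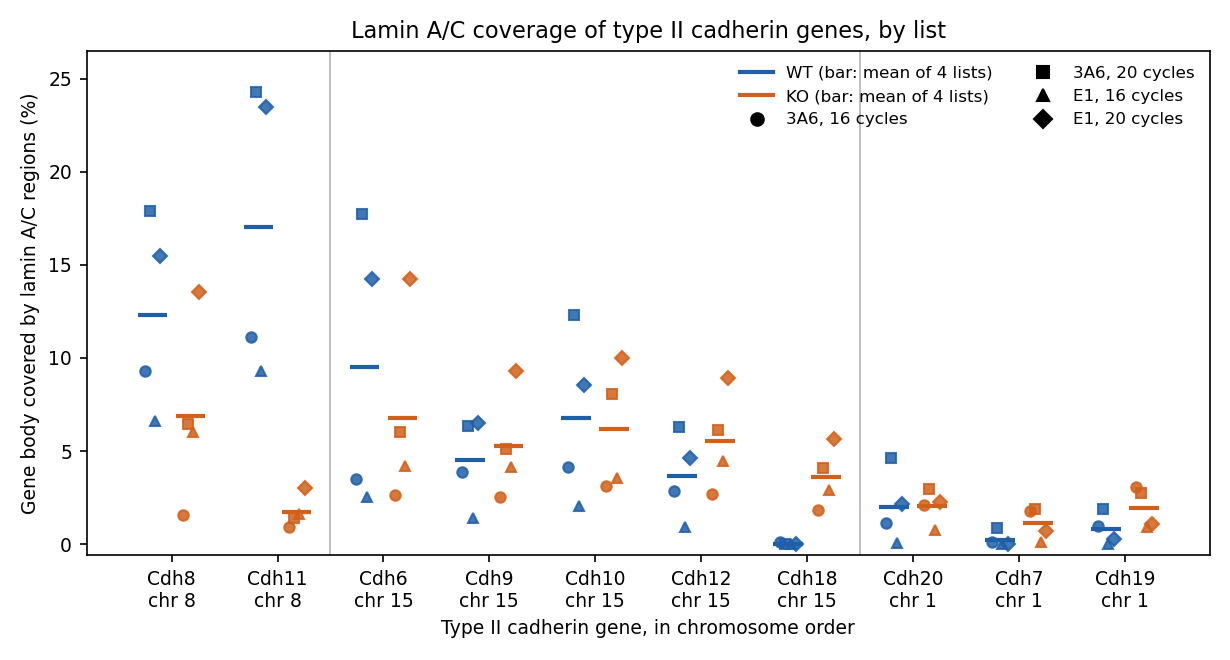
Lamin A/C coverage (percent of gene body plus 1 kb on each side) of the 10 genes in chromosome order, with 1 point for each of the 4 WT (blue) and 4 KO (orange) lists, shaped by antibody and sonication cycles, and a bar at the mean of 4 lists. Cdh11 has all WT points (9.31% to 24.3%) above all KO points (0.91% to 3.02%), Cdh18 has all KO points (1.83% to 5.65%) above all WT points (0% to 0.12%), and the points of the other 8 genes overlap.

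The lamin A/C regions at Cdh11 were short, and far fewer in KO. WT lists had 45, 68, 45 and 75 regions over the gene (3A6 at 16 and 20 cycles, then E1 at 16 and 20), and KO lists 6, 9, 9 and 14. The widest WT region was 1534 bp (chr8:102651708-102653241, GRCm38, 3A6 at 20 cycles). WT coverage was spread over the gene and, of 4 equal parts, was lowest in the one at the upper-coordinate end, with 5.65%, 14%, 6.5% and 12.8%. The antibodies named partly the same places: of 68 WT 3A6 regions at 20 cycles, 35 (51.5%) overlapped an E1 region, and of 75 E1 regions 36 (48%) overlapped a 3A6 region. At 16 cycles these were 17 of 45 (37.8%) and 18 of 45 (40%). Of the 14 KO E1 regions at 20 cycles, 12 overlapped a WT one, and of the 9 at 16 cycles 6 did. With 3A6 it was 3 of 6 KO regions at 16 cycles and 5 of 9 at 20 cycles.

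The 500 kb flanks of Cdh11 were also less covered in KO, by -9.10 points ± 5.63 (SD, 4 pairs, all lower). In WT the gene was 1.18 to 1.46 times as covered as its flanks. In KO it was 0.34 to 0.83 times as covered as its flanks, so the gene went from above to below its surroundings in all 4 pairs. The KO flanks were unequal. The lower-coordinate flank, which faces Cdh8, had 1.51%, 5.56%, 5.26% and 11.8%, while the upper flank had 0.68%, 2.90%, 2.29% and 5.45%.

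BRG1 differed at Cdh11 in the opposite direction. The WT lists covered 0% (16 cycles) and 0.42% (20 cycles) of the gene, and the KO lists 4.48% and 4.94%. Both KO lists were above both WT lists, with a difference of 4.50 points ± 0.03 (SD, 2 pairs), which was the largest BRG1 difference among the 10 genes. Beyond the chromosome the difference was 4.35 points ± 1.37, higher in both pairs. Chromosome 8 itself differed by 1.10 points at 16 cycles and -0.80 points at 20 cycles. Among genes of 80 kb or more, 21.2% had both KO lists above both WT lists; Cdh11 was the only member. The WT lists had 0 and 1 BRG1 regions over the gene and the KO lists 5 and 11. Of the 5 KO regions at 16 cycles, 3 overlapped one at 20 cycles.

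The KO BRG1 regions lay at the upper-coordinate end of Cdh11, the end where WT lamin A/C was lowest. From the lower to the upper of 4 equal parts of the gene, KO coverage by BRG1 was 0%, 1.89%, 4.77% and 11% at 16 cycles. At 20 cycles it was 0%, 0%, 5.85% and 12% in the same parts. The widest region at 16 cycles was 3424 bp (chr8:102782264-102785687, GRCm38) and spanned that annotated gene end. A BRG1 region at a Cdh11 gene end was listed in both KO libraries and neither WT library, which held for 1.47% of genes of 80 kb or more. The absence in WT at 20 cycles turns on the 1 kb window: the 1 WT region of the gene (chr8:102783652-102784299) lay 1.19 kb from that end and overlapped a KO region. At 16 cycles the nearest WT region was 32.4 kb from it. The upper flank of Cdh11 also had more BRG1 in KO, 2.81% and 5.00%, than in WT, 0.56% and 2.40%.

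CHD4 coverage itself gave no single direction at Cdh11. At 16 cycles WT had 0.15% and KO 1.79%, whereas at 20 cycles WT had 1.17% and KO 0.23%. The KO list at 20 cycles is the shortest of the series, with 0.16% of chromosome 8 covered against 3.37% in its WT partner, and its part in this reversal was not tested. Relative to the chromosome, Cdh11 was higher in KO in both pairs, by 0.41 points at 16 cycles and 2.27 points at 20 cycles. On this measure every member was higher at 20 cycles. At 16 cycles, 4 of the 6 KO CHD4 regions overlapped a KO BRG1 region.

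Lap2alpha itself was listed over Cdh11 in WT cells. It covered 3.56% of the gene at 16 cycles and 2.35% at 20 cycles, 2.31 and 1.21 times the coverage of chromosome 8, and Cdh11 had the highest value of the 10 genes in both lists. Of 20 Lap2alpha regions at 16 cycles, 11 (55%) overlapped a WT 3A6 region and 7 (35%) an E1 region. At 20 cycles all 11 overlapped 3A6 and 3 overlapped E1.

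**Figure D2:**
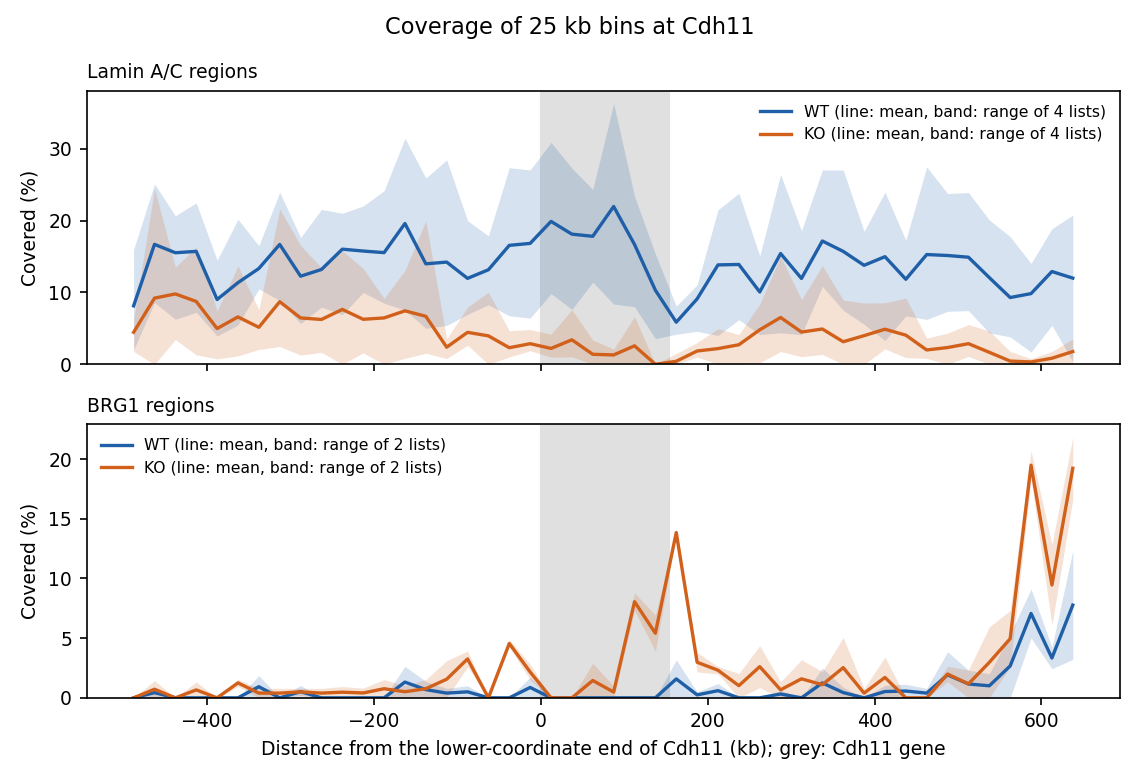
Percent of 25 kb bins covered by lamin A/C regions (top) and BRG1 regions (bottom) against distance in kb from the lower-coordinate end of Cdh11, with WT in blue and KO in orange; lines are means and bands ranges over 4 lamin A/C or 2 BRG1 lists, and the gene is grey. The WT lamin A/C line lies above the KO line over the gene and both flanks, and KO BRG1 is highest at the upper end of the gene and near the far edge of the upper flank (18.3% and 20.7% in the bin centred at 587.5 kb, against 5.02% and 9.12% in WT).

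Cdh8, the other member on chromosome 8, is known from neurons. Its WT coverage by lamin A/C was 9.30%, 17.9%, 6.63% and 15.5%, and its KO coverage 1.57%, 6.45%, 6.0% and 13.5% (3A6 at 16 and 20 cycles, then E1). All 4 pairs were lower in KO, but the groups overlapped. The size rested on the antibody: -9.58 points ± 2.62 (SD, 2 pairs) with 3A6 and -1.29 points ± 0.93 with E1, where the chromosome itself was higher in KO. The 3.21 Mb between Cdh8 and Cdh11 gave similar values, 9.28%, 18.2%, 7.19% and 16.8% in WT and 1.54%, 6.21%, 5.75% and 14.4% in KO. With E1, then, Cdh8 and the stretch beside it had KO values near those of WT, and Cdh11 did not. The mean difference of Cdh8 was -3.43 points when the 20-cycle 3A6 pair was left out.

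Cdh8 had almost no BRG1 in either genotype. Coverage was 0% and 0.07% in WT and 0.06% and 0.22% in KO, higher in both pairs as at Cdh11 but by only 0.11 points ± 0.07. Beyond the chromosome, BRG1 at Cdh8 was lower in KO at 16 cycles (-1.04 points) and higher at 20 cycles (0.96 points). BRG1 higher in both pairs was common, at 34.4% of genes of 80 kb or more. Lamin A/C lower in all 4 pairs together with BRG1 higher in both held for 5 of 3138 genes of 80 kb or more (0.159%), of which Cdh11 and Cdh8 are 2. Lap2alpha covered 2.69% and 2.29% of Cdh8, next below Cdh11 among the 10 genes.

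Cdh18, a cadherin of the brain on chromosome 15, differed in the opposite direction to Cdh11 in both lamin A/C and BRG1 coverage. Lamin A/C covered 0.12%, 0%, 0% and 0% of its 929 kb in WT and 1.83%, 4.09%, 2.92% and 5.65% in KO (3A6 at 16 and 20 cycles, then E1). Every KO value was above every WT value. The difference was 3.59 points ± 1.68 (SD, 4 pairs, all higher), and 2.45 points ± 1.35 beyond chromosome 15. WT lists had 5, 0, 0 and 0 regions over the gene, and KO lists 72, 150, 100 and 173. The flanks did the same, by 4.2 points ± 2.1, with all 4 pairs higher.

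BRG1 at Cdh18 was high in WT and low in KO. It covered 3.10% (16 cycles) and 5.95% (20 cycles) of the gene in WT, the highest BRG1 values of the 10 genes there, and 0.91% and 1.10% in KO. Both WT lists were above both KO lists, with a difference of -3.52 points ± 1.88 (SD, 2 pairs), as in 6.05% of genes of 80 kb or more. The number of BRG1 regions was 54 and 128 in WT and 17 and 29 in KO. Of the 29 KO regions at 20 cycles, 18 (62.1%) overlapped a WT region, and of the 128 WT regions 17 (13.3%) overlapped a KO one. What BRG1 was listed in KO lay mostly in the lowest of 4 equal parts of the gene, at 2.43% and 2.49%, against 0.037% to 1.11% in the other 3.

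At the gene ends, Cdh18 had BRG1 in both WT lists and neither KO list, as 0.351% of genes of 80 kb or more did. The nearest KO regions were 15.9 kb and 16.0 kb from the lower end and 17.5 kb and 12.3 kb from the upper end. CHD4 was lower in KO in both pairs as well, 1.82% against 0.41% at 16 cycles and 1.88% against 0.05% at 20 cycles, where the KO list is the shortest. Cdh12 was the other member with less CHD4 coverage in both pairs (14.1% of genes of 80 kb or more), and no member had more coverage in both (1.18%). Lap2alpha covered 0.96% and 0.80% of Cdh18; of its 35 and 26 regions there, 1 and 0 overlapped a WT 3A6 region and none an E1 region. Lamin A/C higher in all 4 pairs with BRG1 lower in both held for Cdh18 alone among the members and for 171 genes of 80 kb or more (5.45%).

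**Figure D3:**
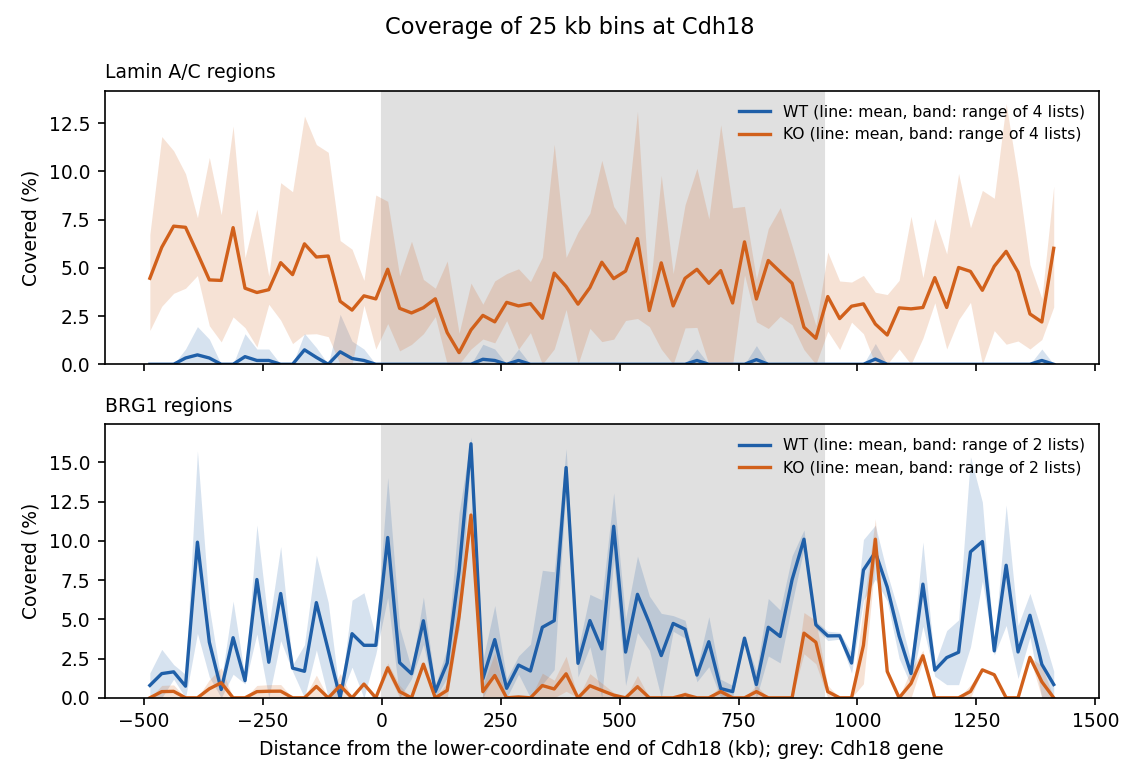
Percent of 25 kb bins covered by lamin A/C regions (top) and BRG1 regions (bottom) against distance in kb from the lower-coordinate end of Cdh18, drawn as for Cdh11 (lines are means, bands ranges over 4 or 2 lists, gene in grey). KO lamin A/C runs across the gene and both flanks where WT is near 0, and WT BRG1 peaks recur along the gene, of which the one in the bin centred at 187.5 kb is also present in KO (15.8% and 16.6% in WT, 12.1% and 11% in KO).

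**Figure D4:**
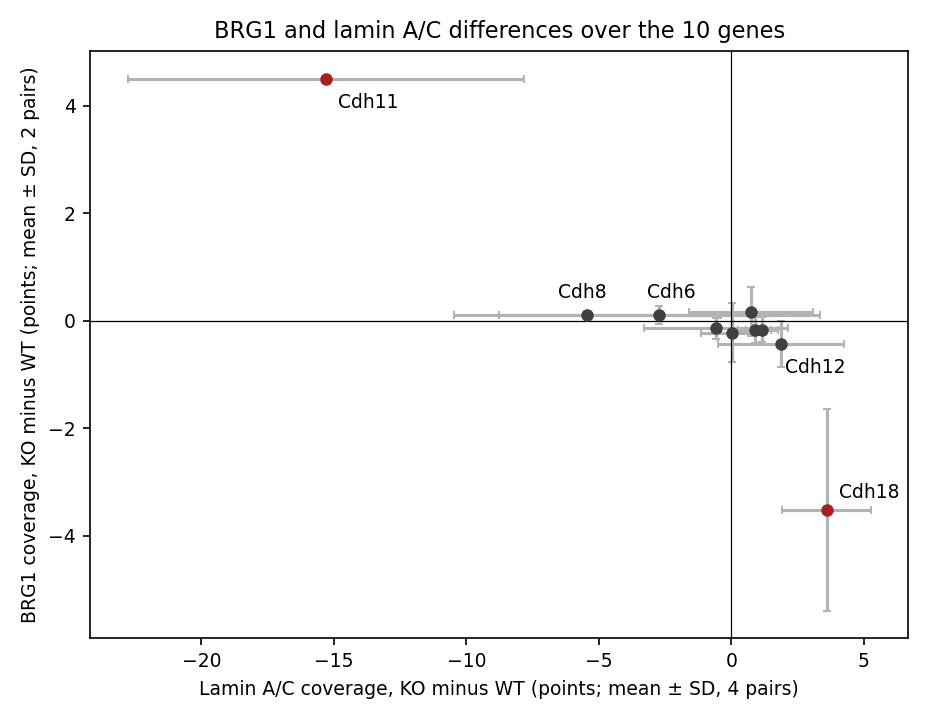
KO minus WT difference in lamin A/C coverage (horizontal, percentage points, mean ± SD of 4 pairs) against that in BRG1 coverage (vertical, mean ± SD of 2 pairs), 1 point per gene. Cdh11 (-15.3 and 4.50) and Cdh18 (3.59 and -3.52) lie far from the other 8 genes, whose BRG1 differences are near 0.

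BRG1 was sparse over the remaining members. At most 1.09% of any of the other 8 genes was covered in any list, the maximum being Cdh12 in WT at 20 cycles. Cdh12 joined Cdh18 in having less BRG1 in KO in both pairs, 0.32% against 0.20% and 1.09% against 0.36% (11.5% of genes of 80 kb or more). Gene ends with BRG1 were few: 2 and 3 of the 10 genes in WT and 2 and 1 in KO, against 42% and 70% of all genes of 5 kb or more in WT and 61.4% and 66% in KO. Cdh9 had one in both WT lists and in KO at 16 cycles, and Cdh20 in WT at 20 cycles. No member had a BRG1 gene-end region in all 4 lists.

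Lamin A/C at gene ends was found at different members in different lists. In WT, 4, 3, 1 and 6 of the 10 genes carried a lamin A/C region at 1 gene end or both (3A6 at 16 and 20 cycles, then E1), where 3.23%, 6.73%, 1.6% and 5.2% of all genes of 5 kb or more did. In KO the numbers were 4, 5, 4 and 6, with 23.2%, 17%, 5.95% and 10.8% of all genes. Cdh6 and Cdh12 had one in all 4 lists at 20 cycles, and Cdh11 had one in 3 WT lists and 1 KO list.

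The chromosome 15 row changed from one end to the other. In mean WT lamin A/C coverage Cdh6, a cadherin known from kidney and neural crest, was highest and Cdh18 lowest, but the genes between did not step down in order: Cdh10 was above Cdh9 in all 4 WT lists, and Cdh9 and Cdh10 were above Cdh6 with 3A6 at 16 cycles. Cdh6 had 3.47%, 17.7%, 2.52% and 14.3% in WT and 2.64%, 6.04%, 4.18% and 14.2% in KO, lower in 3 of 4 pairs, by -2.72 points ± 6.06. That mean rests on 1 pair, 3A6 at 20 cycles, in which Cdh6 differed by -11.7 points; without it the mean was 0.26 points.

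Between Cdh12 and Cdh18 the WT lamin A/C nearly ended. The 0.95 Mb between these genes had 0.82%, 0.60%, 0.06% and 0.31% in WT and 2.05%, 5.09%, 3.75% and 8.87% in KO. BRG1 there was 1.28% and 3.71% in WT and 0.13% and 0.50% in KO, the pattern of Cdh18. The 1.43 Mb between Cdh10 and Cdh12 had 3.17%, 9.19%, 1.26% and 6.74% lamin A/C in WT and 2.33%, 4.98%, 3.74% and 9.14% in KO, lower with 3A6 and higher with E1.

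**Figure D5:**
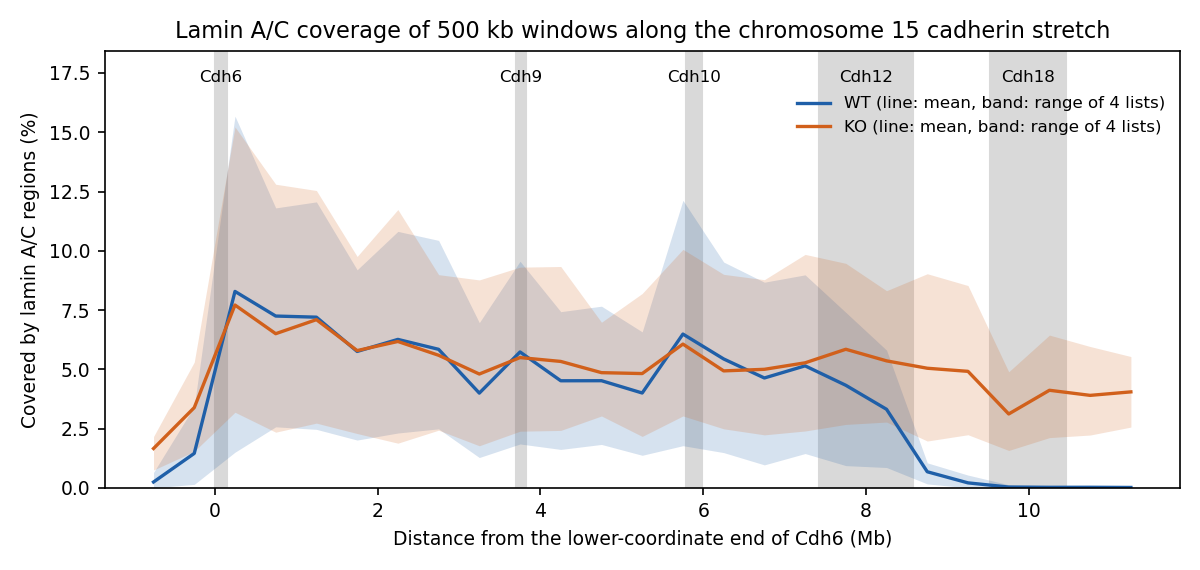
Percent of 500 kb windows covered by lamin A/C regions along the chromosome 15 row, against distance in Mb from the lower-coordinate end of Cdh6; WT in blue and KO in orange, lines the mean and bands the range of 4 lists, genes in grey. The WT and KO lines run together from Cdh6 to Cdh10, part over Cdh12, and beyond it WT is near 0 while KO continues through Cdh18.

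Cdh9, Cdh10 and Cdh12, cadherins of neurons, gave a direction that depended on the antibody. Cdh9 had 3.87% and 6.36% in WT and 2.53% and 5.14% in KO with 3A6, and 1.41% and 6.53% in WT and 4.14% and 9.31% in KO with E1. Cdh10 had 4.17% and 12.3% in WT and 3.12% and 8.09% in KO with 3A6, and 2.04% and 8.56% against 3.56% and 10.0% with E1. Cdh12 had 2.86% and 6.29% in WT and 2.71% and 6.12% in KO with 3A6, and 0.93% and 4.62% against 4.45% and 8.90% with E1. All 3 were lower in KO in both 3A6 pairs and higher in both E1 pairs, as were 3.44% of genes of 80 kb or more, and 8.4% of such genes on chromosome 15. Chromosome 15 itself had more lamin A/C in every KO list, by 0.44 and 0.032 points with 3A6 and by 1.51 and 2.57 points with E1. Relative to the chromosome, Cdh10 in E1 at 20 cycles was lower (-1.11 points) and no longer higher.

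The chromosome 1 members had little lamin A/C. Cdh7 had 0.14%, 0.86%, 0% and 0% in WT and 1.78%, 1.88%, 0.13% and 0.73% in KO, a difference of 0.88 points ± 0.63. Cdh19, known from Schwann cell precursors, had 1.00%, 1.89%, 0% and 0.27% in WT and 3.06%, 2.73%, 0.93% and 1.06% in KO, a difference of 1.15 points ± 0.60. Both were higher in all 4 pairs, with overlapping groups. Neither call held with regions of at least 300 bp only or with equal numbers of the widest regions, and that of Cdh19 did not hold with regions up to 5 kb apart merged. Cdh20 had 1.15%, 4.62%, 0.09% and 2.14% in WT and 2.13%, 2.96%, 0.76% and 2.26% in KO, a difference of 0.03 points ± 1.18. Chromosome 1 was also higher in KO in every pair, by 1.5, 0.022, 0.32 and 0.40 points, and beyond it Cdh7 was higher in 3 of 4 pairs, Cdh19 in 4 and Cdh20 in 1.

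Ordered by mean WT coverage, the genes ran Cdh11 (17.1% ± 7.93, SD of 4 lists), Cdh8 (12.3% ± 5.24), Cdh6 (9.50% ± 7.65), Cdh10 (6.77% ± 4.58), Cdh9 (4.54% ± 2.42), Cdh12 (3.68% ± 2.31), Cdh20 (2.00% ± 1.94), Cdh19 (0.79% ± 0.85), Cdh7 (0.25% ± 0.41) and Cdh18 (0.029% ± 0.059). Neighbours in this order differed by less than the larger of their SDs. These SDs run over antibodies and sonication lengths that all genes share, so they do not measure gaps between genes. In all 4 WT lists Cdh11 was above Cdh8, Cdh8 above Cdh6, Cdh10 above Cdh9 and Cdh9 above Cdh12. Cdh12 was likewise above Cdh20, and Cdh20 above Cdh19. Cdh6 was below Cdh10 with 3A6 at 16 cycles, and the steps from Cdh19 to Cdh7 and to Cdh18 included ties with E1. In KO the order was Cdh8 (6.89% ± 4.95), Cdh6 (6.77% ± 5.16), Cdh10 (6.2% ± 3.4), Cdh12 (5.55% ± 2.63), Cdh9 (5.28% ± 2.89), Cdh18 (3.62% ± 1.64), Cdh20 (2.03% ± 0.92), Cdh19 (1.94% ± 1.11), Cdh11 (1.75% ± 0.90) and Cdh7 (1.13% ± 0.84). Neighbours in the KO order also differed by less than the larger of their SDs, which carries the same limit. Cdh11 went from the first place to the ninth and Cdh18 from the last to the sixth.

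The genes whose lamin A/C pattern was nearest that of Cdh11 over the 8 lists, among 4943 genes of 50 kb or more, were Sorcs3, Gm5150, Lrrc3b, Spata16 and Hnf4g, with root mean square differences of 2.9 to 4.2 points. All 5 were lower in KO in all 4 pairs, a direction that the choice fixes. Lrrc3b was the one of them with clearly more BRG1 in KO (0% and 1.02% in WT, 2.34% and 3.83% in KO).

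None of the other cadherins and catenins examined was lower in KO in every lamin A/C pair. Of 12 further cadherins, 0 were lower in KO in all 4 lamin A/C pairs and 3 were higher: Cdh5, the endothelial cadherin (0% in all WT lists, 1.26% ± 0.97 in KO), Cdh22 (0% and 0.63% ± 0.35) and Cdh26 (2.55% ± 2.74 and 6.33% ± 5.02). The highest mean WT coverage among the 12 was that of Cdh13 (13.8% ± 11.3) and Cdh4 (12.7% ± 13.4). Both had a lower mean in KO, but the pairs differed in direction. Cdh13 differed by -4.34 points ± 8.84, lower in 2 pairs and higher in 2. Cdh4 differed by -1.57 points ± 9.13, lower in 1 pair and higher in 3. Of 7 catenins, 0 were lower and 3 higher: Ctnna2 (1.23% ± 0.98 and 3.27% ± 1.66), Ctnna3 (0.90% ± 0.89 and 1.61% ± 0.60) and Ctnnd2 (1.93% ± 1.37 and 3.43% ± 1.6). Catenins link cadherins to actin or hold them at the membrane. Of 6 protein-coding genes within 500 kb of a member, 3 were higher: Drosha, a microRNA-processing enzyme (0.23% ± 0.21 and 1.65% ± 0.95), Pdzd2 (0.85% ± 1.03 and 3.68% ± 1.99) and Rnf152 (1.39% ± 1.61 and 4.19% ± 3.74). Beside these counts stand the shares given above, 0.605% lower and 9.94% higher among genes of 5 kb or more. Among genes of 80 kb or more they were 1.08% and 29.7%. The 3 catenins higher in all 4 pairs are 857 kb to 1574 kb long, and Cdh22, Drosha, Pdzd2 and Rnf152 also exceed 80 kb. Some of the neighbours are shorter than 5 kb and lie in neither set.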

How the data were processed

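Each library was deposited by the authors as a list of intervals (chromosome, start and end in base pairs, GRCm38), with no height or score. The submitters' processing notes name MACS2 2.1.4, HOMER 4.11.1, bedtools, deepTools and SAMtools; what each was used for, the threshold and any control were not given in the sources used here. Groups were taken from the sample titles. Intervals of width 0 (1 to 1201 per list) and mitochondrial intervals (5 and 1, in 2 lists) were dropped. Overlapping intervals, present in 7 lists and absent from 11, were merged; the 20-cycle pairs of 3A6, BRG1 and CHD4 join lists of these 2 forms. Chromosome coverage is the share of the span between the outermost regions of all lists. Gene ends were taken at both ends, since strand was not available for every gene, and overlap meant at least 1 bp. Reference shares were taken over the 3138 protein-coding genes of 80 kb or more in the RefSeq table, and in part over the 16849 of 5 kb or more. Every group holds 1 library, so nothing was tested. The members, gene lists, markers and alternatives were chosen with earlier results of these data known. Named genes were all members, other cadherins, catenins and neighbours that differed one way in all 4 lamin A/C pairs, and the 5 genes nearest Cdh11 by root mean square difference. Cdh4 and Cdh13 were named after seeing the data, for the highest mean WT coverage among the further cadherins. Coverage functions were tested on simulated data. Python 3.11.15, pandas 2.3.3, numpy 2.4.6 and matplotlib 3.10.9 were used.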

Additional observations from a re-analysis of the deposited data

Results flagged for a closer look

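At 3 members the KO minus WT difference in lamin A/C coverage had opposite signs with the 2 antibodies, in both sonication lengths of each, and this difference was not tested. At Cdh9 the mean difference was -1.28 points over the 3A6 pairs and 2.75 points over the E1 pairs, a gap of 4.03 points. At Cdh10 it was -2.63 and 1.49 points, a gap of 4.12. At Cdh12 it was -0.16 and 3.90 points, a gap of 4.05. The 3 genes are neighbours on chromosome 15, where the chromosome as a whole was 0.24 points higher in KO with 3A6 and 2.04 points higher with E1. Beyond the chromosome the Cdh10 means had the same sign, -2.87 points with 3A6 and -0.55 with E1. Those of Cdh9 (-1.52 and 0.72) and Cdh12 (-0.39 and 1.86) stayed opposite.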

How the results depend on the processing

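Of 126 alternative values for 13 results, 0 changed sign, but many of them could not. Counts of genes and coverage levels are never negative. Settings that leave out or select pairs draw on pairs that already shared a sign in each reported difference. In the same unit as the reported value were 118, of which 98 stayed within the bound (1 SD over pairs or lists, or 1.5 times for counts of genes) and 20 moved; BRG1 at Cdh11 has an SD of 0.03 points, so small shifts count as moved there. The other 8, as region centres per 100 kb or a log2 ratio, can be compared in sign only. The alternatives for Cdh18, Cdh8, BRG1 and Lap2alpha were added after seeing the data. With regions up to 5 kb apart merged, the lamin A/C difference became -70.4 points at Cdh11 (-67.8 beyond the chromosome, -46.2 in its flanks), 21.6 at Cdh18 and -25.2 at Cdh8, the BRG1 difference 5.85 at Cdh11 and -11.9 at Cdh18, and Lap2alpha covered 14.3% of Cdh11; the 3 members higher in every pair were then Cdh12, Cdh18 and Cdh7. Merging over 1 kb gave a BRG1 difference of 5.31 points at Cdh11, and the gene body alone 4.23. With regions of at least 300 bp only, Cdh18 differed by 1.81 points, BRG1 at Cdh11 by 4.2, Lap2alpha covered 1.61% of Cdh11, and 1 member (Cdh18) was higher in every pair, as it was with equal numbers of the widest regions, where BRG1 at Cdh11 differed by 4.43 points. With 3A6 alone 6 members were lower in every pair, and with E1 alone 7 were higher. Members with a lamin A/C gene end per KO list averaged 4.75, against 3.25 with windows of 500 bp and 6.25 with 2 kb. Leaving out each pair in turn gave -17.9 to -12.8 points at Cdh11 (-16.8 to -12.3 beyond the chromosome, -11.3 to -6.69 in its flanks), 2.91 to 4.22 at Cdh18, -7.03 to -3.43 at Cdh8, 2 to 3 members lower and 3 to 4 higher. No paired analysis was possible because each group has 1 library, so replicate numbers offer no block; the WT and KO pairs used throughout are matched on antibody and cycles and give differences with no test. Without counts, depth could not be judged, and a gene at 0% may hold unlisted signal.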
